A study of Rattus norvegicus with 4 samples.

Results

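Mitochondrial ribosomal protein genes were taken as the protein-coding genes of the deposited count table whose symbol began with Mrpl or Mrps followed by a number. There were 78 of them among 22293 protein-coding genes, of which 49 were Mrpl genes, named for the large subunit of the mitochondrial ribosome, and 29 were Mrps genes, named for the small subunit. Counts came from 4 RNA-sequencing libraries of lumbar dorsal root ganglia (DRG), the ganglia that hold the cell bodies of sensory neurons. All rats were wild-type neonatal Wistar rats. In the vehicle group (n = 2 libraries) they received PBS, and in the cisplatin group (n = 2 libraries) they received the platinum chemotherapy drug cisplatin at 0.3 mg/kg. Injections were intraperitoneal on postnatal days 14 and 16. Ganglia were taken on postnatal day 23 by the methods section and 16 days after treatment by the sample labels, and which holds could not be settled. The sample titles number 1 rat for each library, the methods describe pooling of several lumbar ganglia, and sex per library was not given in the sources used here. With only 2 libraries a group, p-values measured only the spread between these libraries.

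The mitochondrial ribosome translates the few proteins that the mitochondrial genome encodes, all of them parts of the respiratory chain or of ATP synthase. Its RNAs are transcribed inside the organelle, but its proteins are encoded in the nucleus, made in the cytosol and imported. Sensory neurons have long axons with a high energy demand, and cisplatin forms adducts on nuclear and mitochondrial DNA. The large subunit joins amino acids to the growing chain, and the small subunit binds the messenger RNA and checks the match between codon and transfer RNA. Some of the proteins descend from bacterial ribosomal proteins and others were gained by mitochondria.

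Sequence upstream of the gene starts is shown first, so that the letters could be set beside the levels that follow. A RefSeq promoter window in build GRCr8 (250 bases before and 50 bases after the start) was matched for 61 of the 76 members tested. The 120 bases before the start are given below, 5′ to 3′ on the gene's strand, for Mrpl42 (chr7:32028523-32028642, minus strand), Mrpl23 (chr1:207116810-207116929, plus strand), Mrpl32 (chr17:55260531-55260650, plus strand), Mrps15 (chr5:143606021-143606140, plus strand), Mrps18a (chr9:22367381-22367500, minus strand) and Mrps18b (chr20:2842886-2843005, plus strand). The first 4 had high fold changes, and the last 2 are S18 paralogues that both had higher levels in the cisplatin libraries. Mrpl17 (chr1:169575700-169575819, minus strand) is added as the member with the highest level per length in vehicle replicate 1 and cisplatin replicate 1. Capitals mark matches to the letters of the NRF1, ETS or YY1 motif.
Mrpl42: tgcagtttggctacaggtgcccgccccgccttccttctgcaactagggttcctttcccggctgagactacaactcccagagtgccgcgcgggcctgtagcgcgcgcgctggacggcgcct
Mrpl23: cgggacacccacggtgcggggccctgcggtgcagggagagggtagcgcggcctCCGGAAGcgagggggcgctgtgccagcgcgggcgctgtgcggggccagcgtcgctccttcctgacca
Mrpl32: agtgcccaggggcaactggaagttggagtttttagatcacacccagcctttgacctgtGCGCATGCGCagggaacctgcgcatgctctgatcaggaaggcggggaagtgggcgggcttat
Mrps15: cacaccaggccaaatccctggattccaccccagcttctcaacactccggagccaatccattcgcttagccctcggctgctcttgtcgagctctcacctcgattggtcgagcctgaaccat
Mrps18a: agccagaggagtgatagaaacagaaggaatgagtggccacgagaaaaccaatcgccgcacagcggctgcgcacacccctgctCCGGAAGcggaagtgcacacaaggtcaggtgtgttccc
Mrps18b: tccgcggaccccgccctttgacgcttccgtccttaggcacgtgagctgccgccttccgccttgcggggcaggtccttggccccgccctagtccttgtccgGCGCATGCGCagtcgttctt
Mrpl17: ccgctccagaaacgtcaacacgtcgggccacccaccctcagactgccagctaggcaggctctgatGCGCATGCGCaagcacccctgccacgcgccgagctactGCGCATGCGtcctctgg

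NRF1 (nuclear respiratory factor 1), ETS proteins such as GABP, and YY1 are transcription factors known to act on many nuclear genes of mitochondria. The NRF1 letters GCGCANGCG, searched on both strands, were found in 11 of the 61 member windows (18.0%) and in 8.04% of all 18999 protein-coding windows. The ETS letters CCGGAAG stood in 19 member windows (31.1%) against 11.2% of all windows. For the YY1 letters AAGATGGCG the shares were 14.8% (9 windows) and 2.29%. These motifs can lie in the 50 bases after the start, which are not printed. The other motifs searched had closer shares: the SP1 letters GGGCGG stood in 47.5% of member windows and 43.1% of all windows, the E-box CACGTG in 11.5% and 7.26%, and TATAAA in 11.5% and 13.1%. NRF1 letters occurred in 9 of 39 large subunit windows and 2 of 22 small subunit windows, and ETS letters in 11 of 39 and 8 of 22. Members with and without the NRF1 letters had the same median log2 fold change between cisplatin and vehicle (0.37 and 0.37), those with and without the ETS letters had medians of 0.46 and 0.36, and those with and without the YY1 letters 0.37 and 0.37. The other motifs had gaps of like size: 0.42 and 0.33 for SP1, 0.23 and 0.37 for the E-box, and 0.23 and 0.37 for TATAAA. Of the sequences above, Mrpl32, Mrps18b and Mrpl17 carried NRF1 letters, Mrpl23 and Mrps18a carried ETS letters, and Mrpl42 and Mrps15 held none of the NRF1, ETS or YY1 letters in these bases. A match is a description of letters and not a binding site.

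Vehicle replicate 1 stood apart from the other libraries by markers of neighbouring tissues. Ckm, the creatine kinase of muscle, had 2213 counts in it and 53, 111 and 18 in vehicle replicate 2, cisplatin replicate 1 and cisplatin replicate 2, and all 3 muscle markers found in the table were highest there. Olig2, a marker of oligodendrocyte lineage cells of the spinal cord, had 56, 0, 0 and 0 counts in the same order, and the fat marker Adipoq 39, 9, 6 and 4. Of the other spinal cord markers, Mog and Gfap were also highest in vehicle replicate 1. Slc17a7 was not, with 5735, 3297, 7658 and 4268 counts in that order. Total counts per library were between 21384801 and 25618417, so 3 counts corresponded to 0.118 to 0.152 CPM (counts scaled by library depth and edgeR's TMM factors). Prph, an intermediate filament protein of peripheral neurons, was at 2303 to 3775 CPM in the 4 libraries. Counts and medians of the members and of the main lists, and the leading genes, are therefore also given without vehicle replicate 1, and the part of these tissues in the results was not tested.

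Levels of mitoribosomal genes were higher in both cisplatin libraries than in both vehicle libraries for most members. Of the 78 genes, 76 had enough counts to be tested (47 large subunit, 29 small subunit), and 72 of these had a log2 fold change above 0, against 49.1% of all 14719 genes tested. In 62 members both cisplatin libraries were above both vehicle libraries, a pattern that 20.6% of all genes tested showed. The opposite pattern was found in 0 members and in 21.2% of all genes, and the groups overlapped in 14 members. The median log2 fold change of the members was 0.36 (interquartile range 0.22 to 0.51, range -1.27 to 1.21), and that of all genes tested was -0.01. Without vehicle replicate 1, 73 of 76 were positive and the median was 0.36, against 0.01 for all genes, and 69 members lay above the remaining vehicle library in both cisplatin libraries, as did 35.8% of all genes.

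No single member was called, that is, passed both a fold change of at least 1.5 and an adjusted p under 0.05. With edgeR's quasi-likelihood test and Benjamini-Hochberg adjustment over all genes tested, 0 members were called higher (0.0% of all genes were) and 0 were called lower (0.00679% of all genes, which is 1 gene). Adjusted p-values of members ran from 0.509 to 0.936 in edgeR's test. At an unadjusted p under 0.05, 19 members were higher (3.74% of all genes) and 0 were lower (5.83% of all genes). DESeq2 called 1 member, Mrpl23 (DESeq2 adjusted p = 0.043), and limma on log2 FPKM called 0. Without vehicle replicate 1, 5 members were higher and 0 lower at an unadjusted p under 0.05, while the genes higher over the whole table went from 550 to 261. Without vehicle replicate 2, 10 members were higher and 1 was lower (359 genes higher in all), without cisplatin replicate 1, 8 and 0 (257 genes), and without cisplatin replicate 2, 9 and 1 (588 genes).

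**Figure D1:**
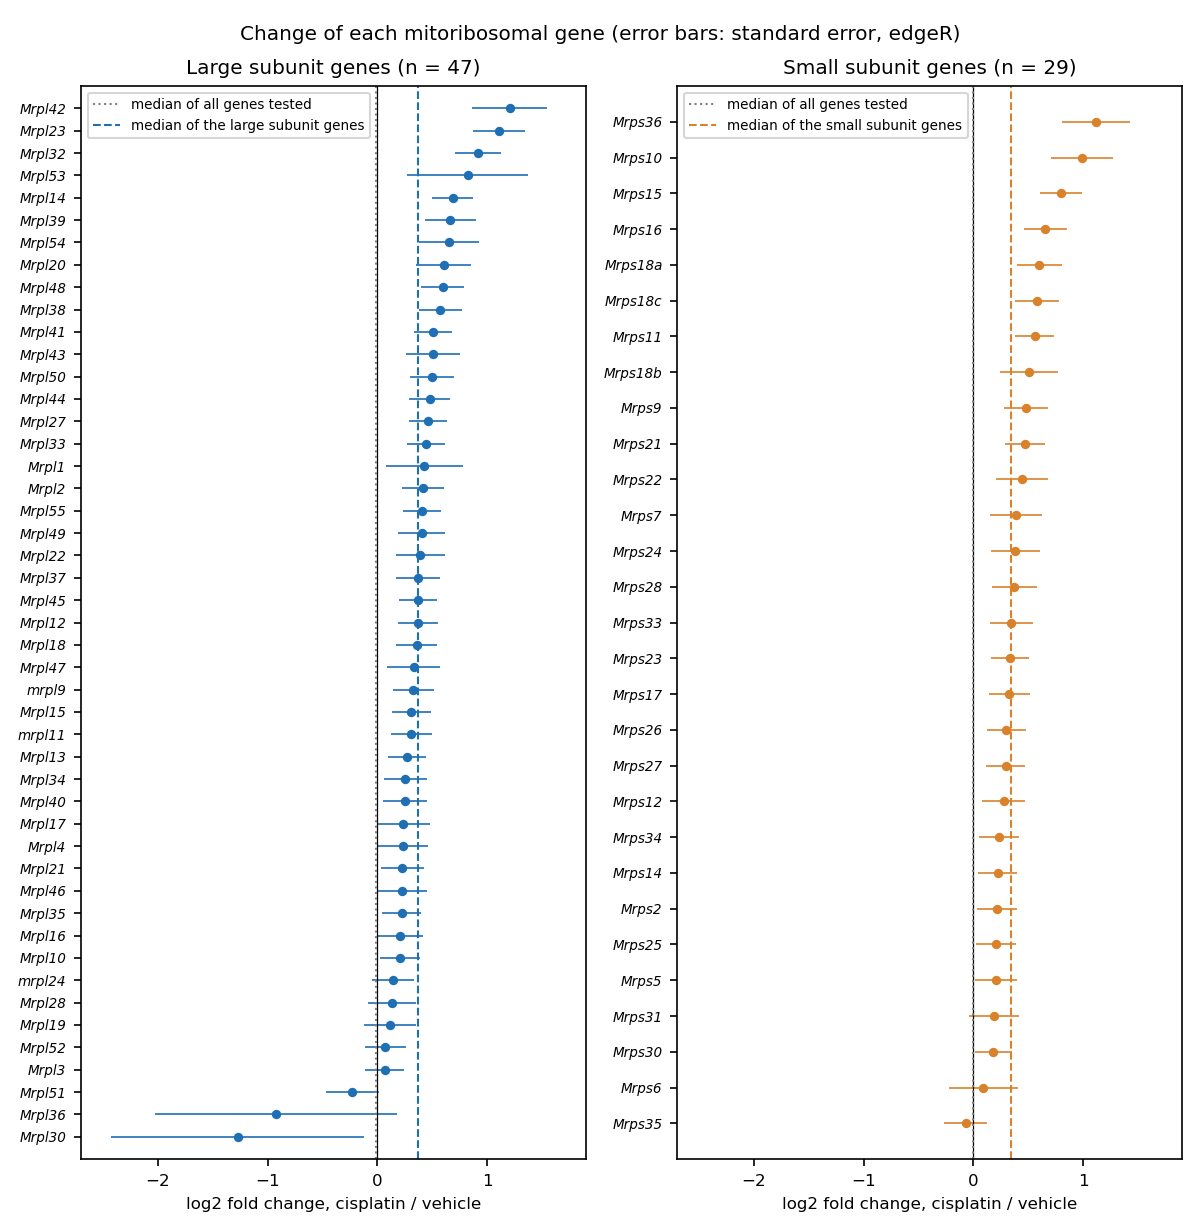
Log2 fold change (cisplatin over vehicle) of each of the 76 members tested, large subunit genes on the left and small subunit genes on the right, with edgeR's standard error as bars. Dashed lines mark the subunit medians (0.37 and 0.35), dotted lines the median of all genes tested (-0.01), and 72 points lie right of 0.

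Summed over all its genes, the large subunit reached 1579 and 1632 CPM in vehicle replicates 1 and 2 and 2092 and 1992 CPM in cisplatin replicates 1 and 2. For the small subunit the sums were 897.8 and 977 CPM against 1229 and 1246 CPM. Both sums were higher in each cisplatin library than in each vehicle library. Group means were 1606 ± 37.5 and 2042 ± 70.7 CPM (SD, n = 2) for the large subunit, a ratio of 1.27, and 937.4 ± 56.0 and 1238 ± 12.0 CPM for the small subunit, a ratio of 1.32. CPM adds long and short genes with unequal weight, so these sums compare libraries and not subunits. The large sum divided by the small sum was 1.76 and 1.67 in vehicle and 1.70 and 1.60 in cisplatin, and these ranges overlapped. All of these sums go by symbol. Sorted by the protein's place (below), the large sums were 1678 and 1728 CPM in vehicle and 2234 and 2111 CPM in cisplatin. The small sums were then 779.9 and 847 CPM against 1031 and 1070 CPM.

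**Figure D2:**
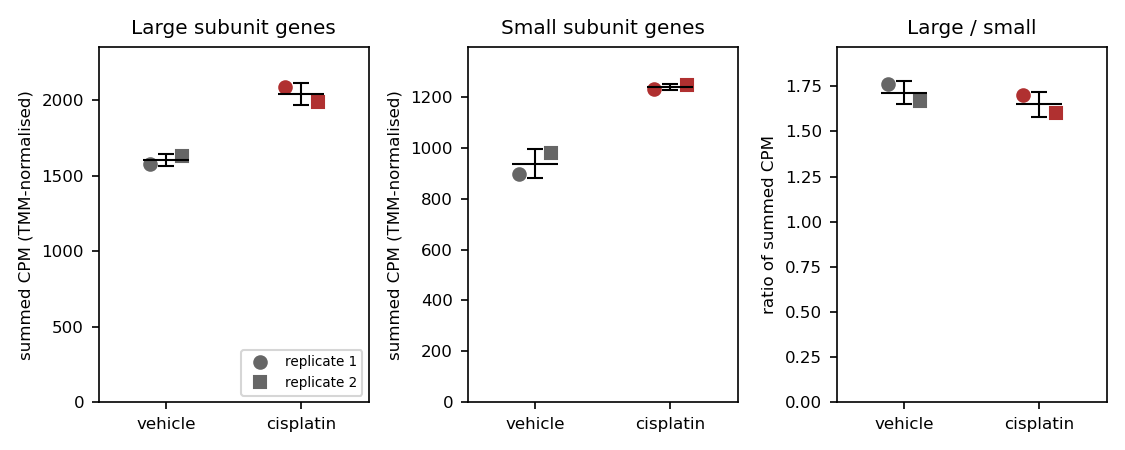
Summed CPM (TMM-normalised) of large and small subunit genes in each library, and their ratio; circles are replicate 1, squares replicate 2, and bars the mean ± SD (n = 2). The lowest cisplatin sums (1992 and 1229) lie above the highest vehicle sums (1632 and 977), while the ratios overlap.

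Fold changes of the subunits were also close. For large subunit genes the median log2 fold change was 0.37, with 44 of 47 positive, 36 with both cisplatin libraries above both vehicle libraries and 11 with an unadjusted p under 0.05. Small subunit genes had a median of 0.35, with 28 of 29 positive, 26 not overlapping in that direction and 8 with an unadjusted p under 0.05. Of all genes tested, 49.1% were positive, 20.6% did not overlap in that direction and 3.74% were higher at that threshold. The medians differed by 0.03 on the log2 scale, less than the spread of that difference between replicate libraries (SD 0.08). Symbols do not always give the place of a protein: the products of Mrps30 and Mrps18a sit in the large subunit, and Mrps36 is now known as a part of the alpha-ketoglutarate dehydrogenase complex. Sorted by place, the medians were 0.37 (49 genes) and 0.34 (26 genes). By symbol, the medians without vehicle replicate 1 were 0.37 for the large and 0.30 for the small subunit.

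Among large subunit genes, the 3 with the highest fold changes were Mrpl42, Mrpl23 and Mrpl32. Mrpl42 (ENSRNOG00000042740, Rnor_6.0 chr7:36573654-36597462) was at 12.7 and 24.7 CPM in the vehicle libraries and 43.3 and 42.8 CPM in the cisplatin libraries. The cisplatin libraries were nearly equal, whereas the vehicle libraries differed from each other, and the log2 fold change was 1.21 ± 0.34 (SE, edgeR unadjusted p = 0.0138, adjusted p = 0.509). Several other rows of the table are named as copies of Mrpl42 and held at most 1 count over the 4 libraries. Mrpl23 (ENSRNOG00000020354, chr1:215701544-215709313), a protein near the exit of the tunnel through which new chains leave, was at 12.8 and 17.4 CPM in vehicle and 30.2 and 34.8 CPM in cisplatin. Its log2 fold change of 1.11 ± 0.24 had the smallest p among members (edgeR unadjusted p = 0.00432, adjusted p = 0.509). Mrpl32 (ENSRNOG00000015989, chr17:53102534-53105400), whose product is cut by a mitochondrial protease before it joins the ribosome, was at 10.7 and 11.2 CPM in vehicle and 20.5 and 20.8 CPM in cisplatin. Replicates of Mrpl32 lay close together, and the log2 fold change was 0.92 ± 0.21 (edgeR unadjusted p = 0.00522).

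Smaller differences of the same kind were found for other large subunit genes. Mrpl14, a conserved protein on the face that meets the small subunit, was at 20.5 and 21.6 CPM in vehicle and 32.4 and 35.5 CPM in cisplatin (log2 fold change 0.69). Mrpl48 was at 29.4 and 36.0 CPM against 51.6 and 47.1 CPM (0.60), and Mrpl38 at 22.7 and 22.8 CPM against 36.8 and 31.0 CPM (0.58). Mrpl41 was at 38.0 and 36.7 CPM in vehicle and 55.0 and 51.2 CPM in cisplatin (0.51). The groups did not overlap in any of these 4 genes. Mrpl12, the protein of the stalk that recruits translation factors and a binding partner of the mitochondrial RNA polymerase, was at 83.3 and 76.2 CPM in vehicle and 111.3 and 95.0 CPM in cisplatin. Its log2 fold change was 0.37 ± 0.19 (edgeR unadjusted p = 0.0954), close to the median of the subunit.

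By symbol, small subunit genes were led by Mrps36, Mrps10 and Mrps15. Sorted by place, Mrps36 belongs to neither subunit, and Mrps10 had the highest log2 fold change of the small subunit (0.99). Mrps36 (ENSRNOG00000061213, chr2:30739855-30748428) was at 18.6 and 33.5 CPM in vehicle and 55.9 and 56.7 CPM in cisplatin, with a log2 fold change of 1.11 ± 0.31 (edgeR unadjusted p = 0.0128). As for Mrpl42, the vehicle libraries were unlike each other and vehicle replicate 1 was the lower. Mrps10 (ENSRNOG00000022609, chr9:15637268-15646846), a protein of the head of the small subunit, was at 18.4 and 11.6 CPM in vehicle and 32.1 and 27.4 CPM in cisplatin (0.99 ± 0.28, edgeR unadjusted p = 0.0149). Here vehicle replicate 1 was the higher of the vehicle libraries. Mrps15 (ENSRNOG00000008279, chr5:144054452-144065045) was at 39.0 and 47.3 CPM against 72.6 and 77.4 CPM (0.80 ± 0.19, edgeR unadjusted p = 0.00672). Mrps16, whose loss in people causes a defect of the respiratory chain, was at 19.7 and 23.2 CPM in vehicle and 33.0 and 34.5 CPM in cisplatin (log2 fold change 0.65). Mrps11 was at 27.0 and 29.3 CPM against 42.2 and 40.6 CPM (0.56). In all 5 genes both cisplatin libraries were above both vehicle libraries. Without vehicle replicate 1, log2 fold changes were 0.81 for Mrpl42, 0.92 for Mrpl23, 0.90 for Mrpl32, 0.76 for Mrps36, 1.37 for Mrps10 and 0.68 for Mrps15.

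**Figure D3:**
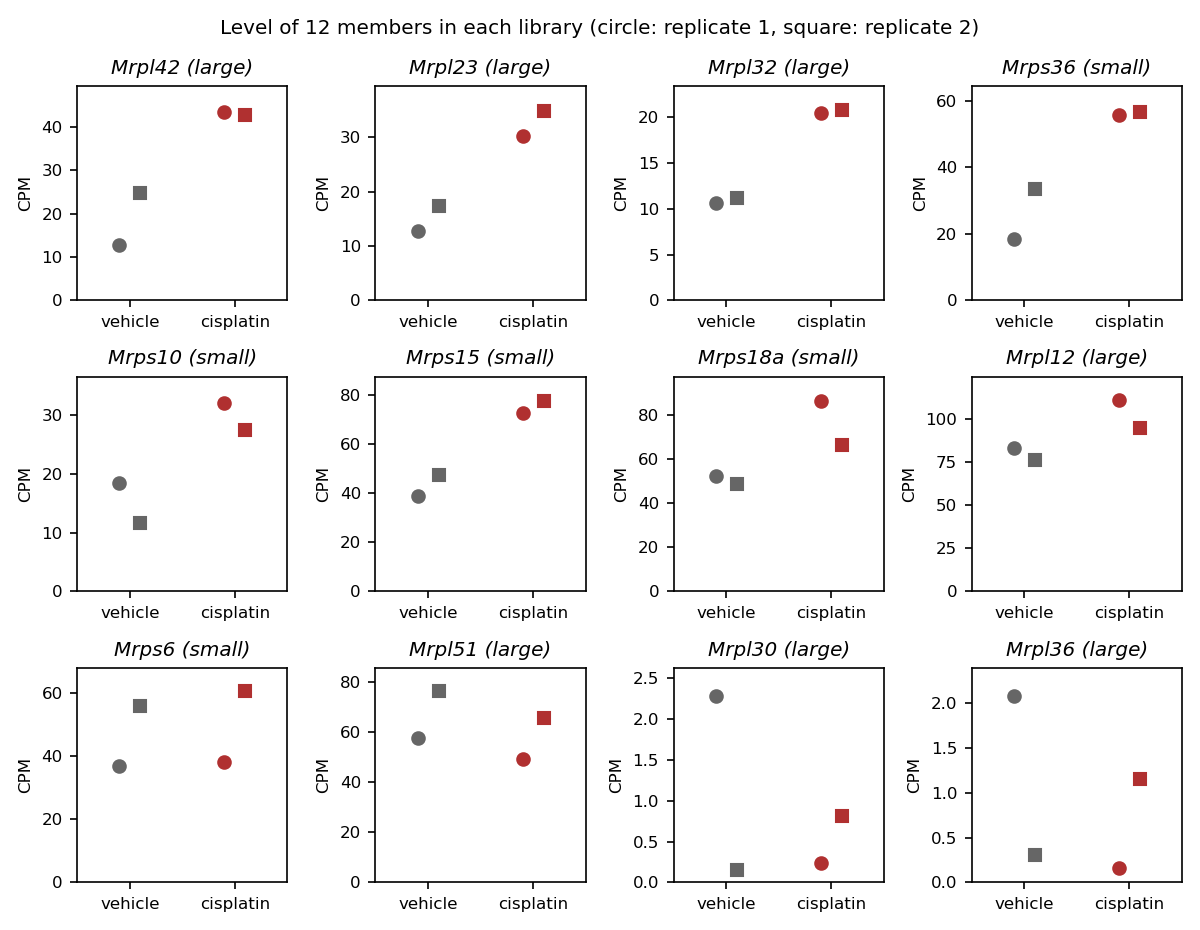
CPM of 12 members in each library, vehicle in grey and cisplatin in red, each axis starting at 0. Mrpl42, Mrpl23, Mrpl32, Mrps36, Mrps10 and Mrps15 are higher in both cisplatin libraries; Mrps6 and Mrpl51 overlap, and Mrpl30 and Mrpl36 are at low counts.

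A set of 3 nuclear genes encodes relatives of a single bacterial protein, S18, and all 3 were higher in cisplatin. Mrps18a was at 52.3 and 48.8 CPM in vehicle and 86.7 and 66.4 CPM in cisplatin (log2 fold change 0.60). Mrps18b was at 40.8 and 40.3 CPM against 71.1 and 44.2 CPM (0.51), so that cisplatin replicate 2 was close to the vehicle level. Mrps18c was at 14.9 and 14.8 CPM against 21.3 and 23.2 CPM (0.58). Log2 fold changes of the 3 were 0.66, 0.53 and 0.60 without vehicle replicate 1. Mrps18a overlaps Rsph9 on the other strand, and the strand setting of the counting was not given in the sources used here.

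Smaller fold changes were found for other Mrps genes with known roles. Mrps12, a conserved protein at the decoding site, was at 29.0 and 35.0 CPM in vehicle and 37.9 and 39.5 CPM in cisplatin (log2 fold change 0.27). Mrps22 was at 14.2 and 18.8 CPM against 20.7 and 24.0 CPM (0.44). Mrps30, which sits in the large subunit despite its symbol, was at 47.1 and 47.8 CPM against 55.0 and 52.6 CPM (0.18). In all 3 both cisplatin libraries were above both vehicle libraries, with unadjusted p-values in edgeR's test of 0.209, 0.119 and 0.331.

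A negative fold change was found in 4 members, and Mrps6 was close to 0. Mrpl51 was at 57.7 and 76.5 CPM in vehicle and 49.2 and 65.5 CPM in cisplatin (log2 fold change -0.23), and Mrps35 at 33.6 and 39.7 CPM against 33.3 and 36.6 CPM (-0.07). Mrps6 was at 37.0 and 55.7 CPM in vehicle and 38.1 and 60.4 CPM in cisplatin (0.09), a pattern in which replicates of the same number were alike and the groups overlapped. Mrpl30 had 57 and 3 counts in vehicle and 6 and 19 in cisplatin, and Mrpl36 had 52 and 6 against 4 and 27. Their log2 fold changes of -1.27 and -0.92 rested on vehicle replicate 1, without which they were 1.74 and 1.08. Mrpl30 also overlaps Mitd1 and other genes on the opposite strand. Second rows named Mrpl36 and Mrpl53 (ENSRNOG00000023407 and ENSRNOG00000052279) were the 2 members not tested, with 0 counts in every library, which allows up to 0.152 CPM in the shallowest of them by counting error alone.

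Expression per length (FPKM, fragments scaled by gene length and by library depth) ranged widely among members. The median FPKM of the members tested was 23.0 and 25.2 in the vehicle libraries and 31.8 and 31.5 in the cisplatin libraries. Mrpl17 was at 182.4 and 153.4 FPKM in vehicle and 233.0 and 164.6 FPKM in cisplatin, and Mrpl33 at 168.0 and 177.0 against 230.1 and 242.6 FPKM. The order of these 2 genes was not the same in all libraries. By the mean over the 4 libraries Mrpl54 followed, with 61.0 and 97.1 FPKM in vehicle and 115.3 and 134.6 FPKM in cisplatin. In the small subunit, Mrps18a (57.1 and 52.7 against 94.5 and 72.6 FPKM), Mrps7 (42.5 and 59.8 against 61.3 and 73.0 FPKM) and Mrps6 (51.8 and 77.3 against 53.3 and 84.7 FPKM) had the highest means, and their ranges overlapped. Mrps2 (7.20 and 6.58 against 8.16 and 7.88 FPKM) and Mrps5 (9.41 and 10.4 against 11.4 and 11.6 FPKM) had the lowest means there, although Mrps36 was lower than Mrps2 in vehicle replicate 1 (6.77 FPKM). At the bottom of the large subunit, Mrpl30 was at 0.761 and 0.0504 FPKM in vehicle and 0.0788 and 0.270 FPKM in cisplatin, and Mrpl53 was at 1.09 and 0.958 FPKM in vehicle and 1.71 and 1.97 FPKM in cisplatin. The ranking of the 76 members by FPKM was nearly the same in every library, with Spearman correlations of 0.923 to 0.970 across genes that share libraries and lengths. The highest of the 4 libraries was a cisplatin library for 72 members (35 and 37) and a vehicle library for 4 (2 and 2). The same count over all genes tested was not taken.

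Gene length moved with the fold change across the whole table, and mitoribosomal genes are short. Their median length was 1129.5 bases against 2371 bases for all genes tested, and 71 of 76 were shorter than that median. Over all genes tested, length and log2 fold change had a Spearman correlation of -0.357, and over the members one of -0.326. After a correction for length as a smooth trend in each library, 65 of 76 members were positive (51.4% of all genes were), and the median log2 fold change was 0.19 in place of 0.36, against 0.01 for all genes. At an unadjusted p under 0.05 in edgeR's test, 7 members were higher in place of 19, and 0 were lower. Of all 14719 genes tested, 288 were higher and 748 lower with the correction. Large and small subunits then had medians of 0.19 and 0.18. Mrps36 and Mrps15, which are long for this group (2690 and 2200 bases), had corrected log2 fold changes of 1.16 and 0.78, whereas Mrpl33, the shortest member (236 bases), went from 0.45 to 0.06. Corrected values were 0.94 for Mrpl42, 0.80 for Mrpl23 and 0.66 for Mrpl32. Whether the length trend came from the tissue or from the libraries was not tested.

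**Figure D4:**
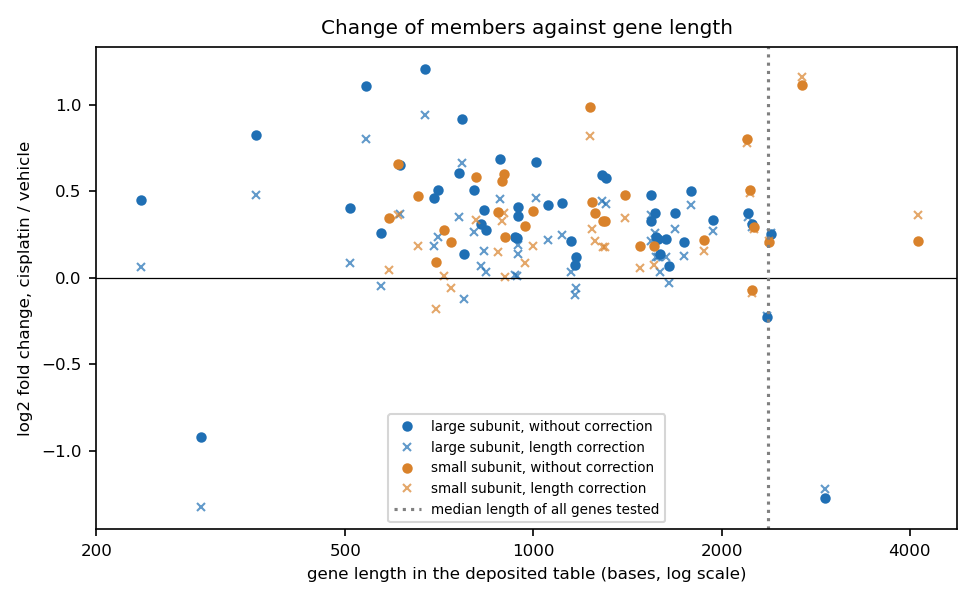
Log2 fold change of each member tested against the gene length in the deposited table (log axis), with dots for the values without and crosses for those with the length correction. Most members lie left of the median length of all genes tested (2371 bases), and the short ones move furthest down with the correction.

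Mitoribosomal proteins with other symbols behaved alike in direction. Of 4 such genes found, Gadd45gip1 was at 42.2 and 50.8 CPM in vehicle and 77.5 and 66.7 CPM in cisplatin (log2 fold change 0.63), and Chchd1 at 26.1 and 27.5 CPM against 39.8 and 41.1 CPM (0.59). Ptcd3 had a log2 fold change of 0.34 and Dap3, which carries the alternative name Mrps29, one of 0.28. Ict1 (Mrpl58), a peptidyl-tRNA hydrolase built into the large subunit, was at 24.7 and 35.2 CPM in vehicle and 42.0 and 50.6 CPM in cisplatin (0.63), and Mrp63 (Mrpl57) at 25.5 and 26.3 CPM against 34.4 and 35.3 CPM (0.43). All 6 were higher in both cisplatin libraries, as were 20.6% of all genes tested, and 0 were called. The median of the first 4 was 0.47, and 0.46 without vehicle replicate 1. A second expressed row for the protein of Mrpl1, LOC100359687, had 166 and 121 counts in vehicle and 145 and 200 in cisplatin, and reads may have been split between it and Mrpl1.

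Genes that work with the ribosome were mixed. A list of translation factors, to which the membrane insertase Oxa1l was added, had 13 genes tested. Of these, 10 were positive, and the median log2 fold change was 0.16. At an unadjusted p under 0.05, 1 was higher (3.74% of all genes were). That median rested on single libraries: it was 0.25 without vehicle replicate 1, 0.01 without vehicle replicate 2, -0.02 without cisplatin replicate 1 and 0.25 without cisplatin replicate 2. The gene with the small p was Oxa1l, which inserts new chains into the inner membrane, at 65.1 and 70.3 CPM in vehicle and 98.4 and 87.1 CPM in cisplatin (log2 fold change 0.45). The elongation factors Tufm, Gfm1 and Tsfm had log2 fold changes of 0.16, 0.01 and 0.30, each with overlapping groups. Among 16 mitochondrial aminoacyl-tRNA synthetases, which charge the transfer RNAs, 7 were positive, the median was -0.03 and 0 had an unadjusted p under 0.05. Of these, 3 were above in both cisplatin libraries (Fars2 at 0.49, Sars2 at 0.35 and Cars2 at 0.29) and 6 were below (Ears2 at -0.92 and Lars2 at -0.41 the furthest), where 20.6% and 21.2% of all genes were above and below. Their median was -0.04 without vehicle replicate 1. For 20 assembly factors the median was 0.11, with 13 positive and 7 above in both cisplatin libraries, led by the RNA helicase Ddx28 (0.50). The assembly factor median was 0.12 without vehicle replicate 1, 0.17 without vehicle replicate 2 and 0.20 without cisplatin replicate 2.

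Nuclear genes of the respiratory chain and the cytosolic ribosome were mostly positive as well. For nuclear respiratory chain genes the median log2 fold change was 0.44 (65 of 68 positive, 29 higher and 1 lower at an unadjusted p under 0.05). Cytosolic ribosomal protein genes had one of 0.50 (72 of 80 positive, 20 higher). Of all genes tested, 49.1% were positive, and 3.74% were higher and 5.83% lower at that threshold. With the length correction the medians were 0.19 and 0.23, beside 0.19 for mitoribosomal genes. Their order against the members turned with the libraries. Without vehicle replicate 1 the medians were 0.55 for the respiratory chain, 0.35 for the cytosolic ribosome and 0.36 for the members. Without vehicle replicate 2 they were 0.37, 0.69 and 0.40, without cisplatin replicate 1 they were 0.42, 0.65 and 0.36, and without cisplatin replicate 2 they were 0.48, 0.32 and 0.38. Ndufb10, a subunit of complex I, was at 57.7 and 74.7 CPM in vehicle and 141.1 and 131.4 CPM in cisplatin (log2 fold change 1.04). These lists are compared here by their medians alone, and the lists share all 4 libraries.

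Products of the mitochondrial genome, which this ribosome translates, had a higher median than the other lists of mitochondrial and ribosomal genes. The median over the 13 mitochondrially encoded protein-coding genes was 1.20 on the log2 scale (1.07 with the length correction). In 12 of them both cisplatin libraries were above both vehicle libraries, as in 20.6% of all genes tested. Mt-nd3 was at 200.6 and 262.9 CPM in vehicle and 669.6 and 664.5 CPM in cisplatin (log2 fold change 1.53, edgeR unadjusted p = 0.00117). Vehicle replicate 1 was the lower vehicle library for all 13, and without it their median was 0.81. The RNA selection used poly-A tails, so ribosomal RNA levels depend on how much escaped it. Rows for mitochondrial ribosomal RNA are not protein-coding, so their values come from a separate edgeR fit to coding and non-coding genes together. The first row had 8859 and 7628 counts in vehicle and 14051 and 15671 in cisplatin (log2 fold change 0.72, edgeR unadjusted p = 0.0263 in that fit). The second had 6259 and 5668 against 6109 and 8486 counts (0.16). The first did not overlap between groups and the second did.

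**Figure D5:**
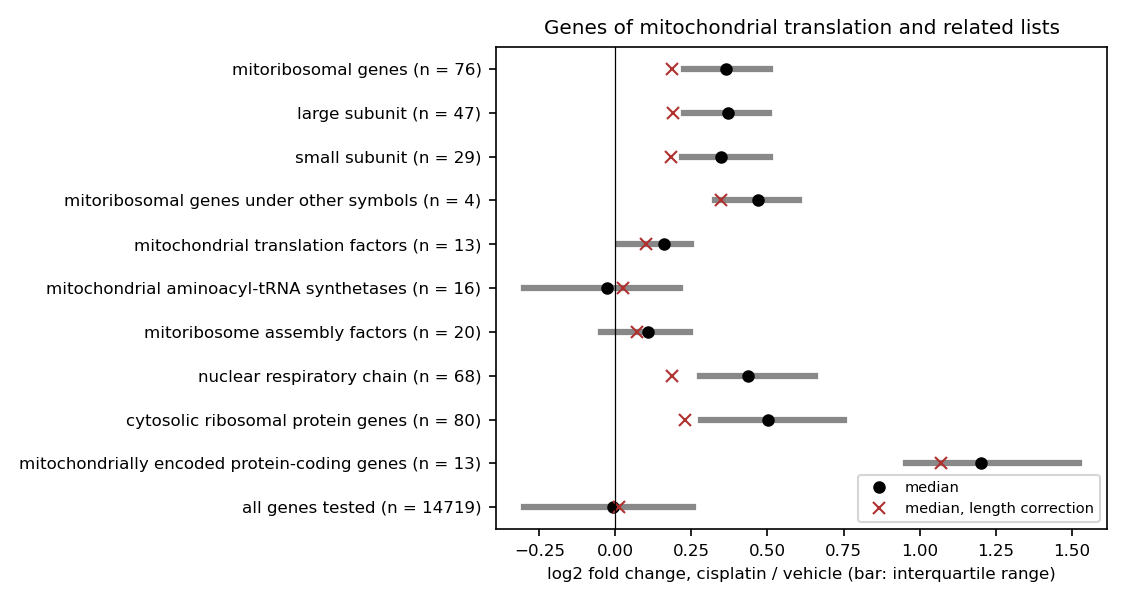
Median log2 fold change (dots) and interquartile range (grey bars) for mitoribosomal genes and related lists, with crosses for the medians after the length correction. Mitoribosomal medians are 0.36 and 0.19, synthetases lie near 0, and mitochondrially encoded genes reach 1.20 and 1.07.

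Position in the genome gave neighbours that could be compared. Mrps11 and Mrpl46 start 72 bases apart in Rnor_6.0 and run in opposite directions, so that a small and a large subunit gene share the stretch between them. Mrps11 had a log2 fold change of 0.56 with groups that did not overlap, and Mrpl46 (21.1 and 24.6 CPM in vehicle, 30.1 and 23.3 CPM in cisplatin) one of 0.23 with overlap. RefSeq places their starts further apart in GRCr8, and the bases between them (chr1:142117031-142117263, plus strand) held none of the NRF1, ETS or YY1 letters.
Mrpl46 to Mrps11: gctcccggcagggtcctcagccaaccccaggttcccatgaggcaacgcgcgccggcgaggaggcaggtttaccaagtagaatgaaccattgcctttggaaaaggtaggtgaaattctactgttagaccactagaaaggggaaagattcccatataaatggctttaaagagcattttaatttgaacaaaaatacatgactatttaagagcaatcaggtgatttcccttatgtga

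Mrps12 starts 16 bases from Sars2, which charges the mitochondrial transfer RNA of serine, and the log2 fold changes were 0.27 and 0.35. Mrpl32 starts 192 bases from Psma2, a proteasome subunit (0.92 and 0.43), and Mrpl47 266 bases from Ndufb5, a complex I subunit (0.33 and 0.80). Other neighbours went apart: Mrps18b stood at 0.51 beside -0.54 for Ppp1r10, and Mrps18c at 0.58 beside -0.04 for Helq. Most such neighbours of other members were near 0 or below. LOC100911867 was at -0.22, Klc4 at -0.10, Zfp189 at -0.05, LOC100360647 at -0.04, Eme2 at 0.03 and Tcp1 at 0.08. Hira was at -1.2 with few counts (77 and 15 in vehicle, 13 and 28 in cisplatin). Lrrc46 (0.48) and Ptcd2 (0.38) were higher. On chromosome 9, Mrps10, Mrpl2, Mrps18a and Mrpl14 lie between positions 15637268 and 17698569, with log2 fold changes of 0.99, 0.42, 0.60 and 0.69. They are not adjacent genes, and neighbouring genes in these libraries are not independent.

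Cell type markers moved with the groups too, and in bulk tissue fewer cells of a type and less RNA per cell cannot be told apart. All 8 sensory neuron markers were positive, with a median log2 fold change of 0.40 (0.07 to 0.48). In 3 of the 8 both cisplatin libraries were above both vehicle libraries, a pattern that 20.6% of all genes tested showed. The summed level of the 8 markers also differed between replicates, as for Avil at 529.9 and 356.9 CPM in vehicle and 761.5 and 471.6 CPM in cisplatin. Schwann cell markers had a median of -0.43, with 0 of 5 positive and all 5 overlapping. This median was -0.91 without vehicle replicate 1 and -1.49 without cisplatin replicate 2, but 0.34 without vehicle replicate 2 and 0.19 without cisplatin replicate 1. Mbp, the myelin basic protein, was at 11340 and 27170 CPM in vehicle and 6854 and 21800 CPM in cisplatin, so that replicate 2 of each group was higher than replicate 1. For mitoribosomal genes the median log2 difference of replicate 1 from replicate 2 was -0.07 in vehicle and -0.02 in cisplatin. Without vehicle replicate 1 the median of the neuron markers was 0.61, and without cisplatin replicate 1 it was 0.09. The median of the mitoribosomal genes was 0.36 in both cases. By subunit it was, in the same order, 0.37 and 0.35 for large and 0.30 and 0.39 for small subunit genes. Satellite glia (1 of 4 positive, median -0.36), fibroblast (1 of 4, -0.44) and macrophage markers (1 of 4, -0.18) were mostly negative, with Cd68 at 0.86 the exception among macrophage genes. Without cisplatin replicate 1 the satellite glia median was 0.04, the fibroblast median -0.06 and the macrophage median -0.08. Whether the cell makeup of the ganglia had a part in the members' levels was not tested.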

How the data were processed

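Lumbar DRG of vehicle-treated and cisplatin-treated rats (n = 2 libraries each, grouped by sample title) were profiled by poly-A-selected paired-end RNA sequencing. According to the methods and the submitters' processing notes, the authors mapped reads to Rnor_6.0 with HISAT2 2.0.5, assembled with StringTie 1.3.3b and counted with featureCounts 1.5.0-p3. One deposited table held raw counts and a second held FPKM values, which the authors computed as counts per gene length and a constant for each library.

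Counts of protein-coding genes were filtered with filterByExpr, scaled by TMM and fitted with edgeR 4.0.16 (quasi-likelihood test, R 4.3.3), with Benjamini-Hochberg adjustment over all 14719 genes tested. CPM values are TMM-normalised. Total counts per library were 21384801 to 25618417, and floors cover counting error only. SE values came from edgeR's quasi-likelihood fit and SD values from replicate libraries, so both include the spread between libraries. FPKM was used for levels between genes and, as log2(FPKM + 1) or log2(FPKM + 0.1), with limma 3.58.1 as an alternative. Other alternatives were DESeq2 1.42.0, other scalings and filters, a lowess offset for gene length (span 0.3), a replicate block and leaving out each library. Motif letters were searched in RefSeq windows of GRCr8. The steps were tested on simulated data.

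Named genes were members with a well-known role, those with an unadjusted p under 0.05 (at most 12), the extremes of fold change and FPKM in each subunit, and members not tested, with up to 3 genes of the smallest p in each other list. Mrpl46, Mrpl2, Dap3, Tufm, Gfm1, Tsfm, Sars2, Cars2, Lars2, LOC100359687, the neighbouring genes and the markers were named outside that rule, after their values were seen. The members and all lists were chosen with earlier results of these data known. The values of 1 further marker gene are not reported here.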

Additional observations from a re-analysis of the deposited data

How the results depend on the processing

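With 2 libraries a group, precision was limited by the spread between libraries more than by counts, and only Mrpl30, Mrpl36 and Mrpl53 were near the lowest counts that were tested. The number of genes called was 1 in edgeR's test, 2 without a filter on low counts, 2 with at least 10 counts in every library, 4 and 2 with limma and a pseudocount of 1 or 0.1 FPKM, 140 with DESeq2 (50 higher, 90 lower), 1195 at an unadjusted p under 0.05 with a fold change of at least 1.5 (412 higher, 783 lower), and 5 to 7 when 1 library was left out. Members called numbered 0, 1 with DESeq2 (Mrpl23) and 11 at that unadjusted threshold, all of them higher. With a replicate block the calls rose to 1665 (529 higher, 1136 lower), of which 13 were members, and with the replicate block and the length correction to 1132 (289 higher, 843 lower) with 6 members. Same-numbered libraries share only a number, and the correlation of their deviations was 0.444.

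The median log2 fold change of the members was 0.19 with the length correction and 0.19 with the replicate block and length correction. For the large subunit it was 0.31 with library size alone, 0.19 with the length correction and 0.19 with block and length, and for the small subunit 0.18 and 0.19 with the last pair of settings. Leaving out 1 library put the large minus small difference between -0.042 and 0.108, and the other settings left it within the replicate SD of 0.08. Leave-one-out log2 fold changes ran from -0.029 to 0.47 for Mrpl17, -0.28 to 0.41 for Mrps6, -0.17 to 0.053 for Mrps35, -2.39 to 1.74 for Mrpl30 and -2.92 to 1.08 for Mrpl36. Mrps6 was at -0.18 with the length correction and -0.19 with block and length. The cause of these changes was not tested.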
